A study of Mus musculus with 4 samples.

Results

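The genes described here are 36 genes of vascular endothelium, the cells that line blood vessels, chosen by name as markers of endothelial identity and of endothelial activation. All 36 were found by symbol in the deposited count table of 29190 genes, and none had a duplicated symbol. Kidney RNA came from 8-week-old male C57 mice in 2 groups of 2 libraries each. One group was injected with cisplatin at 30 mg/kg, a platinum chemotherapy drug that damages DNA and is toxic to kidney tubules, and the other received physiological saline. The protocol divides 18 mice into 3 groups and names 24 h and 48 h after cisplatin, and the labels do not tie the cisplatin libraries to either time. The series' text calls the libraries of a group biological replicates, and no label says whether a library holds 1 mouse or a pool.

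Endothelial cells form a continuous lining in arteries and veins and a fenestrated one in the glomerulus and around the tubules. Their identity rests on adherens junctions built on VE-cadherin, on receptors for vascular endothelial growth factor and the angiopoietins, and on transcription factors of the ETS and SOX families. Inflammatory cytokines such as TNF switch on adhesion molecules on their surface, which slow circulating leukocytes and hold them on the vessel wall. In the kidney the capillaries lie directly against the tubules that take up cisplatin.

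The libraries held 20662475 and 23150274 counts after cisplatin, against 21483564 and 27122403 counts after saline. Levels are CPM, counts scaled to library size and then by the trimmed mean of M values (TMM), and 3 counts in a library corresponded to 0.111 to 0.145 CPM before scaling. A call is a Benjamini-Hochberg adjusted p under 0.05 in edgeR's quasi-likelihood test over all 17419 genes that passed the filter on low counts, and log2 fold changes put cisplatin over saline and carry a standard error (SE). The 36 genes passed that filter. Libraries of a group differed by more than sampling noise, and the biological coefficient of variation was 6.42%.

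Most endothelial transcripts made up a larger part of kidney RNA after cisplatin. Together the 36 genes took 0.229% of the counts in each cisplatin library, against 0.11 and 0.115% in the saline libraries. In CPM the sum was 1993 and 2049 after cisplatin, against 1278 and 1277 after saline. Of the 36 genes 28 (77.8%) rose, 4 fell and 4 did not pass the test. Cisplatin changed 73.6% of all genes tested, with 37.2% higher and 36.4% lower. At least a 2-fold rise was found for 16 members (44.4%), against 19.2% of all genes, and a fall of at least 2-fold for 1 member (2.78%), against 16.1% of all genes. The median log2 fold change was 0.85 over the members and 0.04 over all genes tested. No overlap between cisplatin and saline libraries was seen for 34 members (94.4%), and for 86.3% of all genes. RNA of whole kidney was measured, so more endothelial cells, more endothelial RNA per cell and less RNA from other cells cannot be told apart.

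The choice of scaling mattered for genes with small changes. With library size alone the median of all genes moved to 0.41, with upper-quartile scaling to 0.16, and the median of the members to 1.21 and 0.97. Scaling by library size alone left 31 members higher and 1 lower, against 52.3% and 24.2% of all genes. All 28 that rose above were among the 31. Of the 4 that fell Aplnr was the one still lower.

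**Figure D1:**
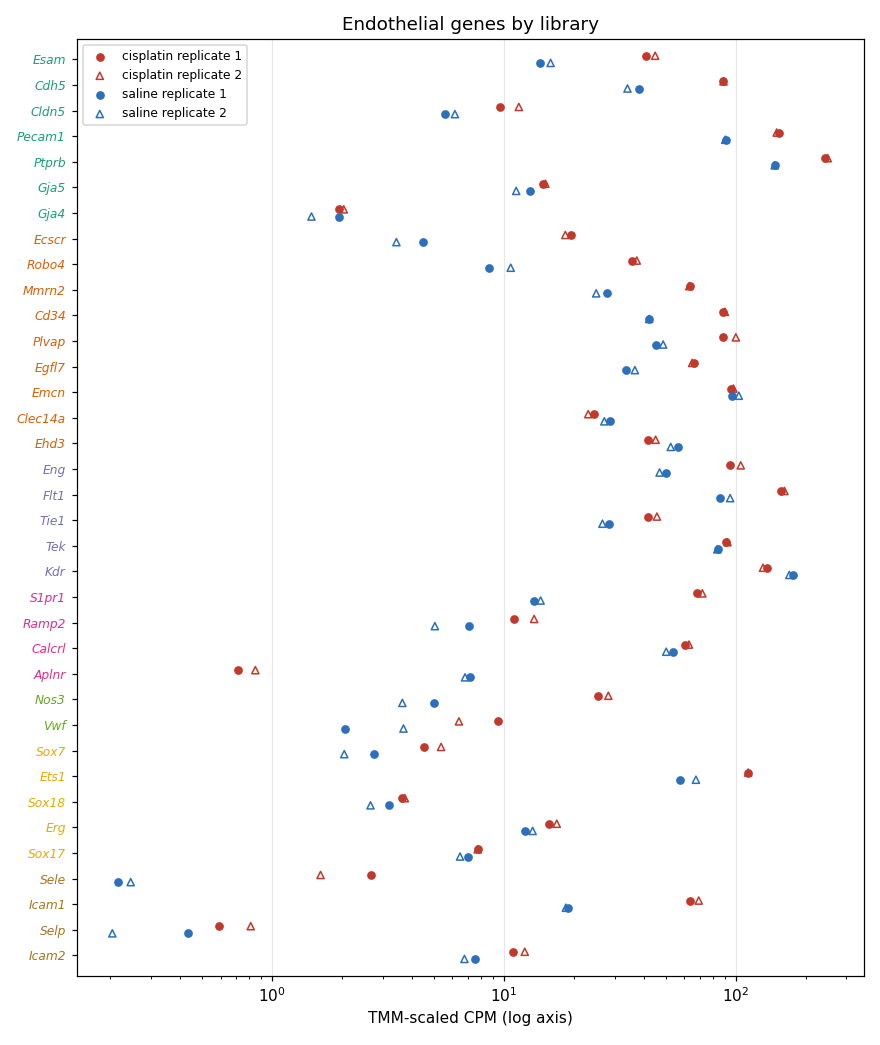
Level of each of the 36 endothelial genes in each library, in TMM-scaled CPM on a log axis, with cisplatin libraries in red and saline libraries in blue. From the top, name colours mark junctions, luminal surface and matrix, growth factor receptors, G protein coupled receptors, vessel tone and haemostasis, transcription factors and leukocyte adhesion, and most red points lie to the right of the blue ones, with Aplnr far to the left.

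Genes of endothelial junctions rose or did not pass. Cdh5 (chromosome 8, 104101625 to 104144511, plus strand, GRCm38), which encodes VE-cadherin, had 88.3 and 88.5 CPM in the cisplatin libraries, against 38.4 and 34.1 CPM in the saline libraries. Its log2 fold change was 1.29 (SE 0.07; edgeR quasi-likelihood test, Benjamini-Hochberg adjusted p = 8.19e-13). Esam, an adhesion molecule of tight junctions, had 40.9 and 44.9 CPM after cisplatin, against 14.3 and 15.9 CPM after saline, and a log2 fold change of 1.50 (SE 0.09). For both genes every cisplatin library was more than 2-fold above every saline library. Pecam1 (chromosome 11, 106654217 to 106750628, minus strand), which encodes the junctional molecule CD31, stood at 154 and 150 CPM after cisplatin, against 91.1 and 90.0 CPM after saline. Ptprb, the phosphatase VE-PTP that restrains Tek and VE-cadherin signalling, had 243 and 249 CPM after cisplatin, against 148 and 147 CPM after saline, the highest CPM among the members after cisplatin. Their log2 fold changes were nearly equal, at 0.75 for Pecam1 and 0.74 for Ptprb (SE 0.06 each). Cldn5, the tight junction claudin of endothelium, rose by 0.85 on the log2 scale (SE 0.15).

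The connexins of arterial endothelium moved less. Gja5, which encodes connexin 40 and is also made by renin cells of the mouse, had 14.8 and 15.1 CPM after cisplatin, against 12.9 and 11.3 CPM after saline. The log2 fold change of 0.31 (SE 0.11) passed at an edgeR adjusted p of 0.0181. It did not pass with DESeq2 (adjusted p = 0.116), without saline replicate 2 or without cisplatin replicate 2. The renin gene Ren1, named after its values were seen, rose in the same libraries, with 69.3 and 76.7 CPM after cisplatin, against 38.1 and 36.6 CPM after saline, and its part in the Gja5 result was not tested. Gja4, which encodes connexin 37, did not pass, with 1.94 and 2.04 CPM after cisplatin, against 1.95 and 1.48 CPM after saline, and its groups overlapped.

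Among the 9 genes of the luminal surface and matrix, 6 rose (66.7%, against 37.2% of all genes), 2 fell and Emcn did not pass. The largest rise was that of Ecscr (chromosome 18, 35713086 to 35722356, minus strand), which encodes an endothelial surface regulator of chemotaxis and apoptosis signalling. It had 19.5 and 18.4 CPM after cisplatin, against 4.49 and 3.44 CPM after saline, so that it rose by 2.27 on the log2 scale (SE 0.14, with an adjusted p of 1.59e-11 in edgeR's Benjamini-Hochberg corrected test). Robo4 (chromosome 9, 37401897 to 37415115, plus strand), a roundabout receptor that stabilises vessels, had 35.8 and 37.4 CPM after cisplatin, against 8.60 and 10.7 CPM after saline. Its log2 fold change was 1.91 (SE 0.11). Mmrn2, a matrix protein that binds the surface lectin Clec14a, rose by 1.27 on the log2 scale (SE 0.07), whereas Clec14a itself did not rise.

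Cd34, a sialomucin that fibroblasts and blood progenitors also carry, had 88.3 and 89.7 CPM after cisplatin, against 42.2 and 42.3 CPM after saline. Plvap, the protein of the diaphragms that span capillary fenestrae, had 88.1 and 100 CPM after cisplatin, against 45.2 and 48.6 CPM after saline. Egfl7, a secreted factor of endothelium whose gene hosts the microRNA miR-126, had 66.0 and 64.8 CPM after cisplatin, against 33.5 and 36.7 CPM after saline. These 3 genes lay close together, with log2 fold changes of 1.07, 1.00 and 0.89.

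Emcn (chromosome 3, 137341067 to 137432185, plus strand), the sialomucin endomucin of capillaries and veins, stood at 95.1 and 97.6 CPM after cisplatin, against 96.7 and 103 CPM after saline. The log2 fold change was -0.05 (SE 0.06), and the groups overlapped. With library size alone it was 0.31 (edgeR adjusted p = 0.000177), so the direction rested on the scaling. Ehd3, an endocytic protein that in the mouse kidney marks glomerular endothelium, had 42.0 and 45.1 CPM after cisplatin, against 56.3 and 52.4 CPM after saline. Clec14a, a C-type lectin of endothelium, had 24.5 and 23.1 CPM after cisplatin, against 28.8 and 27.1 CPM after saline. Ehd3 fell by 0.32 and Clec14a by 0.23 on the log2 scale (SE 0.07 and 0.09; edgeR adjusted p = 0.000433 and 0.0266), while with library size alone they stood at 0.05 and 0.14 and did not pass. Clec14a was not called without cisplatin replicate 2 (adjusted p = 0.153) or without saline replicate 1 (0.0945).

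**Figure D2:**
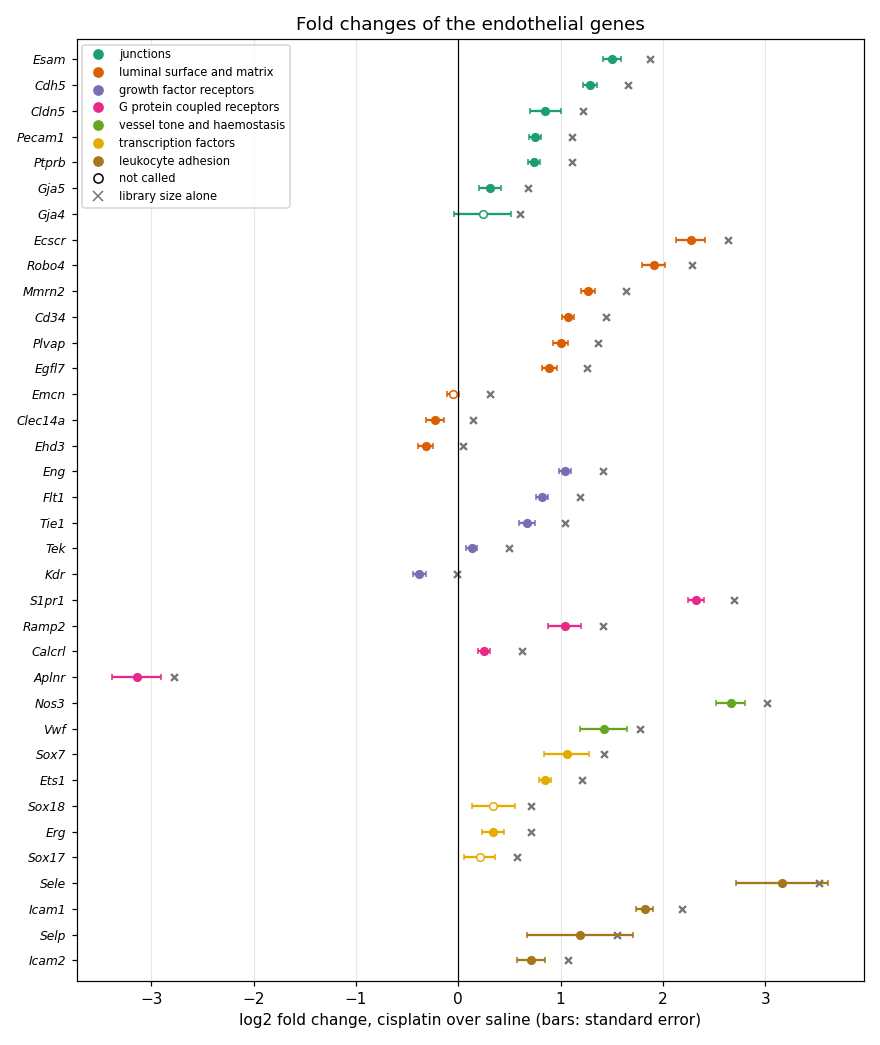
Log2 fold change of each endothelial gene, cisplatin over saline, with its standard error as a bar. Open circles did not pass the edgeR test, and grey crosses show the value with library size alone, which lies to the right of the circle for every gene. Aplnr stands alone on the left at -3.14, and Sele is farthest to the right at 3.16.

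Receptors for vascular growth factors did not move as a block. Eng, which encodes the TGF-beta co-receptor endoglin, had 94.5 and 105 CPM after cisplatin, against 49.9 and 46.9 CPM after saline, a log2 fold change of 1.04 (SE 0.06). Flt1, a VEGF receptor that in soluble form traps its ligand, had 157 and 162 CPM after cisplatin, against 85.8 and 94.5 CPM after saline, a log2 fold change of 0.82 (SE 0.06). Kdr (chromosome 5, 75932827 to 75978458, minus strand), the main signalling receptor for VEGF-A, had 136 and 131 CPM after cisplatin, against 176 and 170 CPM after saline. Per length Kdr stayed above Flt1 in both groups, at 15.6 against 10.1 FPKM after cisplatin and 16.8 against 4.75 FPKM after saline. Kdr fell by 0.38 on the log2 scale (SE 0.06; edgeR quasi-likelihood test, Benjamini-Hochberg adjusted p = 8.86e-06), but stood at -0.01 with library size alone (adjusted p = 0.927).

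The angiopoietin receptor Tek had 90.6 and 92.1 CPM after cisplatin, against 83.5 and 83.2 CPM after saline. Its log2 fold change of 0.13 (SE 0.05) passed at an edgeR adjusted p of 0.0294, and did not pass when any of the 4 libraries was left out (0.0763 to 0.139). Tie1, the orphan partner of Tek, had 42.0 and 45.7 CPM after cisplatin, against 28.5 and 26.6 CPM after saline, a log2 fold change of 0.67 (SE 0.08).

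The G protein coupled receptors included the largest fall and one of the largest rises. S1pr1 (chromosome 3, 115710433 to 115715072, minus strand), the sphingosine 1-phosphate receptor that tightens the endothelial barrier, had 68.0 and 71.7 CPM after cisplatin, against 13.5 and 14.4 CPM after saline. Its log2 fold change was 2.32 (SE 0.08; Benjamini-Hochberg adjusted p = 1.34e-15 by edgeR's quasi-likelihood test), and it lay between 2.22 and 2.69 over the 15 alternatives. Aplnr (chromosome 2, 85136225 to 85139923, plus strand), the receptor of apelin, had 17 and 22 counts after cisplatin, against 132 and 166 counts after saline. In CPM these were 0.717 and 0.848 after cisplatin, against 7.14 and 6.80 after saline. Aplnr fell by 3.14 on the log2 scale (SE 0.24; adjusted p = 3.48e-10 by the same test), an 8.81-fold lower level in cisplatin kidneys, and it was lower under each of the 15 alternatives.

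Calcrl and Ramp2 encode the receptor and the accessory protein that together bind adrenomedullin. Calcrl had 60.3 and 62.8 CPM after cisplatin, against 53.5 and 50.1 CPM after saline, a log2 fold change of 0.25 (SE 0.06). Ramp2 had 11.1 and 13.5 CPM after cisplatin, against 7.09 and 5.04 CPM after saline, a log2 fold change of 1.04 (SE 0.16). Vps25, a gene on the same strand, shares 1103 of the 3301 exon bases of Ramp2 in the annotation and had 1271 and 1429 counts after cisplatin, against 719 and 1017 after saline. The Ramp2 value is uncertain to that extent, because how shared reads were counted is not given.

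Nos3 (chromosome 5, 24364810 to 24384474, plus strand), the endothelial nitric oxide synthase that relaxes vessels, had 25.4 and 28.2 CPM after cisplatin, against 4.98 and 3.65 CPM after saline. The groups lay far apart, and the log2 difference of 2.66 (SE 0.14), or 6.31-fold, had an adjusted p of 7.38e-13 in the quasi-likelihood test of edgeR with Benjamini-Hochberg correction. Atg9b overlaps Nos3 on the opposite strand over 294 exon bases and had 191 and 218 counts after cisplatin, against 1 and 8 after saline. Whether counting used strand is not given, so its part in the Nos3 value was not tested. Nos3 itself had 602 and 731 counts after cisplatin, against 92 and 89 after saline, and Gm15587, an antisense gene over 1040 of its exon bases, had 5 and 3 counts after cisplatin, against 0 and 1 after saline.

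Vwf, which encodes the platelet-binding von Willebrand factor, had 9.45 and 6.40 CPM after cisplatin, against 2.06 and 3.69 CPM after saline. It varied widely between libraries of a group, and its log2 fold change of 1.42 (SE 0.23) lay between 1.08 and 1.93 when single libraries were left out. Megakaryocytes and platelets also make Vwf and Selp. The 12 platelet and megakaryocyte markers summed to 5.40 and 8.33 CPM after cisplatin, against 5.79 and 6.02 CPM after saline. Gp6, the platelet collagen receptor, had no count in any library, and of the 5 markers tested 3 rose and 2 did not pass.

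Of the 5 transcription factors 3 rose (60%, against 37.2% of all genes). Ets1, an ETS factor that lymphocytes also express, had 113 CPM in both cisplatin libraries, against 57.7 and 67.3 CPM after saline, a log2 fold change of 0.85 (SE 0.06). Erg, the ETS factor that maintains endothelial identity, had 15.7 and 16.9 CPM after cisplatin, against 12.3 and 13.3 CPM after saline. Its log2 fold change was 0.34 (SE 0.11, edgeR adjusted p = 0.00828). Erg did not pass with DESeq2 (adjusted p = 0.0675), without cisplatin replicate 2 or without saline replicate 1.

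The SoxF factors Sox7, Sox17 and Sox18 act together in vessel development. Sox7 had 4.51 and 5.36 CPM after cisplatin, against 2.76 and 2.05 CPM after saline, a log2 fold change of 1.06 (SE 0.22). Sox17, an arterial factor, had 7.76 and 7.71 CPM after cisplatin, against 6.98 and 6.47 CPM after saline, and Sox18 had 3.63 and 3.74 CPM after cisplatin, against 3.19 and 2.66 CPM after saline. Neither passed (log2 fold changes 0.21 and 0.34, SE 0.15 and 0.21; edgeR adjusted p = 0.212 and 0.155), although both passed with library size alone, at 0.57 and 0.71. Of 15 T and B lymphocyte markers 9 were tested, of which 3 rose (33.3%, against 37.2% of all genes) and 6 did not pass. The 15 summed to 10.5 and 9.41 CPM after cisplatin, against 8.5 and 7.05 CPM after saline.

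All 4 leukocyte adhesion genes rose, where 37.2% of all genes did, but the call of Selp was lost under several alternatives given below. Icam1 (chromosome 9, 21015985 to 21028817, plus strand), the ligand of the leukocyte integrins LFA-1 and Mac-1, had 63.3 and 69.2 CPM after cisplatin, against 18.9 and 18.5 CPM after saline. Its log2 fold change was 1.82 (SE 0.08; edgeR quasi-likelihood test, Benjamini-Hochberg adjusted p = 4.33e-14). Icam1 is inducible in many cells, tubule epithelium and leukocytes among them. Sele (chromosome 1, 164048234 to 164057677, plus strand), which encodes E-selectin and is restricted to activated endothelium, had 63 and 42 counts after cisplatin, against 4 and 6 counts after saline. In CPM these were 2.66 and 1.62 after cisplatin, against 0.216 and 0.246 after saline, near the level of 3 counts. The log2 fold change of Sele was 3.16 (SE 0.45; adjusted p = 3.63e-06 by the same test), and it lay between 2.77 and 3.48 when single libraries were left out.

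Selp, which encodes P-selectin, was barely detected, with 14 and 21 counts after cisplatin, against 8 and 5 counts after saline. Its call (log2 fold change 1.19, SE 0.52; edgeR adjusted p = 0.0449) was lost without saline replicate 2 (0.394), without cisplatin replicate 2 (0.312) and without cisplatin replicate 1 (0.104). It was also lost with DESeq2 (adjusted p = 0.238), edgeR's exact test (0.0504), no filter on low counts (0.0711) and the replicate block (0.0573). With limma-trend on FPKM plus 1 Selp did not pass either (adjusted p = 0.0723). Icam2, which resting endothelium already carries, had 10.9 and 12.3 CPM after cisplatin, against 7.52 and 6.76 CPM after saline, a log2 fold change of 0.71 (SE 0.14).

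Promoter windows from RefSeq, reaching from 250 bases before to 50 bases after the gene start on GRCm38.p6, were given for 19 of the 36 genes. Windows of Icam1 and Sele are shown because both are cytokine-inducible and their human promoters are textbook targets of NF-kB. The capitals mark GGANATTCC, a motif like NF-kB sites, written after these windows had been read and searched on both strands. It stands 153 bases before the RefSeq start of Icam1 (window chr9:21015690-21015989, plus strand) and 145 bases before that of Sele (window chr1:164047984-164048283, plus strand). The RefSeq start of Icam1, 21015940, lies upstream of the GENCODE start given above, from which the motif is 198 bases away, and the starts of Sele are the same.
Icam1: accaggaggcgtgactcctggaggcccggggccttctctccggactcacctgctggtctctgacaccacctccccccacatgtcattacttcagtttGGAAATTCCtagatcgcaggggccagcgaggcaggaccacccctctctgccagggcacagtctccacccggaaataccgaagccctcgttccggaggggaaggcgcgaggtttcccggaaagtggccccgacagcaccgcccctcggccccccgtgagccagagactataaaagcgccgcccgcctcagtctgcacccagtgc
Sele: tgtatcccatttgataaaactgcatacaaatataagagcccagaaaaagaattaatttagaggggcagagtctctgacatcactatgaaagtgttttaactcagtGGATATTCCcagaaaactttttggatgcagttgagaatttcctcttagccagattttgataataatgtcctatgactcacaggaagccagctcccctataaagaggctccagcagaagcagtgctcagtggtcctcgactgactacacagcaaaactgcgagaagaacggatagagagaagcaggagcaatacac
Among the 19 genes with a window only these 2 hold the motif, and it occurs in 0.931% of all 32851 windows. The letters were chosen from these windows, so the count is a description.

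An ETS motif, CAGGAAG on either strand, occurred in the windows of 8 of the 19 genes (Calcrl, Cd34, Egfl7, Ehd3, Emcn, Erg, Robo4 and Sele), or 42.1%, and in 13.3% of all windows. Egfl7 and Erg have 3 windows each, and a match in any of them was counted. Of these 8 genes 6 rose, Ehd3 fell and Emcn did not pass, and of the 19 genes 14 rose. Robo4, with a rise of 1.91 on the log2 scale, and Emcn, at -0.05, are printed as a pair that both hold the motif, in capitals. It lies 50 bases before the RefSeq start in Robo4 (window chr9:37401722-37402021, plus strand) and 174 bases before it, on the opposite strand, in Emcn (window chr3:137340828-137341127, plus strand). These RefSeq starts, 37401972 for Robo4 and 137341078 for Emcn, lie downstream of the GENCODE starts given above. From the GENCODE starts the motif lies 25 bases after that of Robo4 and 163 bases before that of Emcn.
Robo4: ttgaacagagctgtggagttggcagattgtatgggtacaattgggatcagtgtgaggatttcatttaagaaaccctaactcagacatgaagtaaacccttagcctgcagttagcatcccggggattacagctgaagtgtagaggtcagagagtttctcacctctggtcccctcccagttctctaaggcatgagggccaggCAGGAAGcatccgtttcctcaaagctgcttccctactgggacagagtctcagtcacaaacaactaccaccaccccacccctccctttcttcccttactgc
Emcn: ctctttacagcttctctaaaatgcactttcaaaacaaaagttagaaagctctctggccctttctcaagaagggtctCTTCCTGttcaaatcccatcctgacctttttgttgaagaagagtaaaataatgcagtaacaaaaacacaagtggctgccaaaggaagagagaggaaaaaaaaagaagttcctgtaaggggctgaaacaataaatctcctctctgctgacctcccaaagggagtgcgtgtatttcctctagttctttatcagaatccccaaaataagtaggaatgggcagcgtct

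Per length, in the authors' FPKM, Plvap at 32.4 ± 2.54, Emcn at 25.8 ± 0.163 and Pecam1 at 25.5 ± 0.87 FPKM were the highest members after cisplatin (SD, n = 2). After saline the order was led by Emcn at 22.2 ± 2.5, Kdr at 16.8 ± 0.714 and Plvap at 13.4 ± 1.58 FPKM (SD, n = 2). Members above 10 FPKM numbered 17 after cisplatin and 6 after saline, and members under 1 FPKM numbered 5 and 7. Several genes changed place. S1pr1 stood at rank 9 of 36 after cisplatin and at 22 after saline, Icam1 at rank 7 after cisplatin and 16 after saline, and Kdr at rank 10 after cisplatin and 2 after saline. Adjacent genes in the order often overlapped between libraries, in 12 of 35 neighbouring pairs after cisplatin and 16 of 35 after saline. The lowest genes were Selp, Aplnr and Sele after cisplatin, at 0.14, 0.15 and 0.51 FPKM, and Sele, Selp and Vwf after saline, at 0.045, 0.055 and 0.175 FPKM.

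The counts of the adhesion genes and Vwf were also divided by the summed counts of Pecam1, Cdh5, Tie1, Tek, Kdr, Emcn and Egfl7, a ratio free of library scaling. The sum was 15935 and 17352 counts after cisplatin, against 10119 and 13262 after saline. In CPM this sum was 672 and 669 after cisplatin, against 548 and 543 after saline, or 1.23-fold higher, since it includes Kdr, Emcn and Tek. It moved less than the median member (0.85 on the log2 scale), so the ratios are larger than they would be against a typical member. Icam1 stood at 94.3 and 103 counts per 1000 of these after cisplatin, against 34.6 and 34.1 after saline. Sele stood at 3.95 and 2.42 per 1000 after cisplatin, against 0.395 and 0.452 after saline. The ratio of means, cisplatin over saline, was 2.88 for Icam1 and 7.52 for Sele. Icam2 was at 16.2 and 18.4 per 1000 after cisplatin, against 13.7 and 12.4 after saline, and Selp at 0.879 and 1.21 after cisplatin, against 0.791 and 0.377 after saline. Vwf was at 14.1 and 9.57 per 1000 after cisplatin, against 3.76 and 6.79 after saline. Their ratios of means were 1.32 for Icam2, 1.79 for Selp and 2.24 for Vwf. None of the 5 genes overlapped between groups, where 86.3% of all genes did not overlap in CPM. The ratios are given as values and were not tested.

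**Figure D3:**
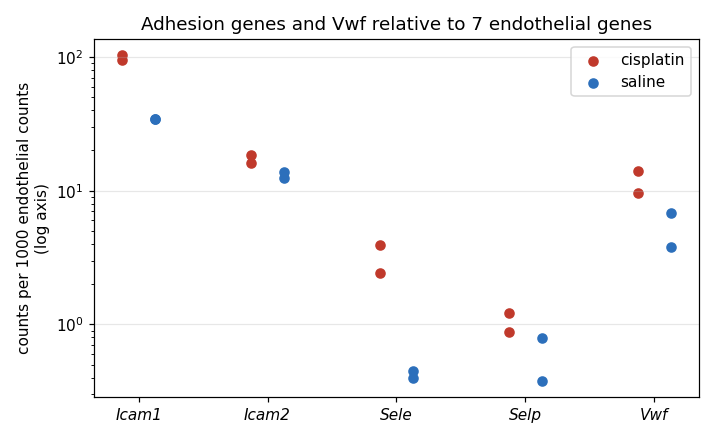
Counts of 4 adhesion genes and Vwf per 1000 counts summed over 7 endothelial genes, on a log axis, 1 point per library. The cisplatin points of Icam1 (94.3 and 103) and Sele (3.95 and 2.42) lie well above their saline points (34.6 and 34.1, and 0.395 and 0.452), and the gap is small for Icam2.

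Genes on the ligand side of the member receptors were called in both directions at shares near those of all genes. Of 18 tested 8 rose (44.4%, against 37.2% of all genes), 6 fell (33.3%, against 36.4%) and 4 did not pass. With library size alone 9 were higher and 3 lower, where 52.3% and 24.2% of all genes were. Angpt1, the ligand that activates Tek, fell by 2.26 on the log2 scale (SE 0.09), with 10.2 and 10.8 CPM after cisplatin, against 48.5 and 52.0 CPM after saline. Sphk1, a kinase that makes the ligand of S1pr1, had 28.5 and 28.1 CPM after cisplatin, against 3.35 and 2.75 CPM after saline. Adm, which encodes adrenomedullin, had 21.9 and 24.9 CPM after cisplatin, against 4.22 and 4.18 CPM after saline. Sphk1 thus rose beside its receptor gene, while Adm rose by 2.48 on the log2 scale and Calcrl by 0.25. Slit2, a guidance cue of the roundabout family of receptors, had 20.2 and 22.1 CPM after cisplatin, against 86.0 and 90.5 CPM after saline.

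Vegfa and Apln, the ligands of Kdr and Aplnr, were named after their values were seen. Vegfa, which podocytes and tubule cells make, had 89.5 and 94.0 CPM after cisplatin, against 157 and 154 CPM after saline. Apln had 7.09 and 7.33 CPM after cisplatin, against 9.04 and 9.26 CPM after saline. Vegfa fell by 0.76 on the log2 scale (-0.40 with library size alone), and Apln by 0.34 (0.02 with library size alone), against 3.14 for Aplnr.

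**Figure D4:**
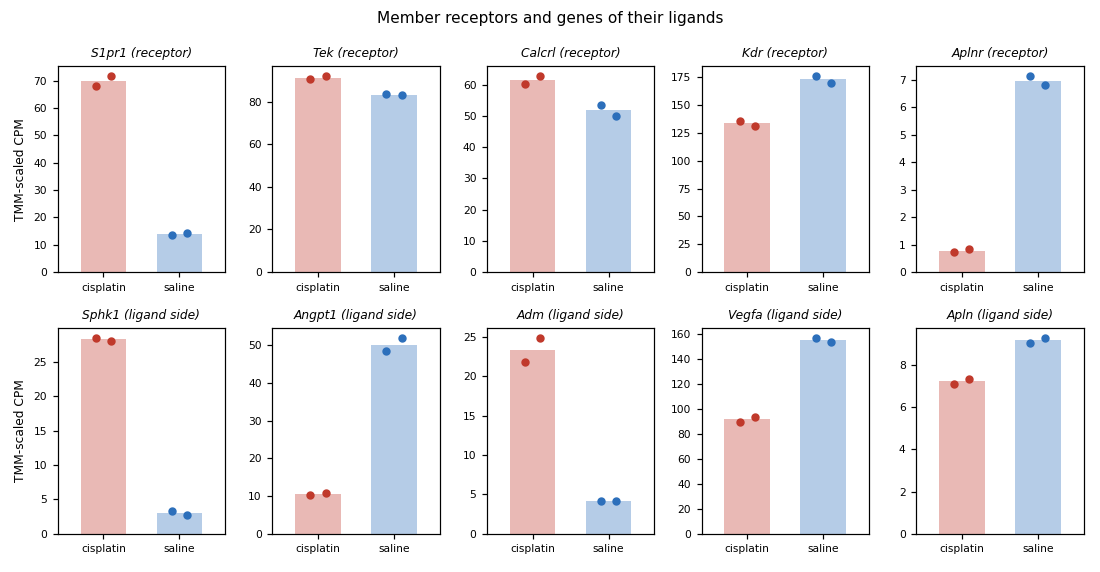
TMM-scaled CPM of 5 member receptors (top) and of genes on the side of their ligands (bottom), with bars at the mean of 2 libraries and 1 point per library. Sphk1 and S1pr1 are both higher after cisplatin, Angpt1 is at 10.2 and 10.8 CPM after cisplatin beside a nearly level Tek, and Aplnr is lower by more than Apln.

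Co-receptors and receptor partners were higher in 10 of 13 tested cases (76.9%, against 37.2% of all genes). In 2 cases (15.4%, against 36.4%) they were lower, Nrp1 at -0.38 and Ctnnb1 at -0.34. Their median was 0.76 on the log2 scale, while the summed CPM was 1272 and 1248 after cisplatin, against 1267 and 1233 after saline. With library size alone 11 were higher and 0 lower, where 52.3% and 24.2% of all genes were. Acvrl1, the receptor that acts with endoglin, had 21.6 and 21.1 CPM after cisplatin, against 11.2 and 9.55 CPM after saline. Tgfbr2, a TGF-beta receptor, had 125 and 126 CPM after cisplatin, against 77.5 and 71.1 CPM after saline. Rasip1, a junctional effector of Rap1, rose by 1.42 and S1pr3, another sphingosine 1-phosphate receptor, by 1.06 on the log2 scale.

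A list of other endothelial genes, which holds no member, gave counts close to those of the members. The test called 27 of 36 higher (75%, against 37.2% of all genes) and 4 lower (11.1%, against 36.4%). Another 5 did not pass, and the median was 0.99 on the log2 scale. Library size alone gave 30 higher and 3 lower, where 52.3% and 24.2% of all genes were. Those that fell were Aqp7 (-1.66), Esm1 (-1.57), Cd300lg (-0.72) and Lmo2 (-0.31). Thbd, which encodes the anticoagulant receptor thrombomodulin, had 111 and 108 CPM after cisplatin, against 27.2 and 26.2 CPM after saline. Cd93, a lectin that binds Mmrn2, had 148 and 150 CPM after cisplatin, against 41.2 and 40.8 CPM after saline. Ly6c1, which monocytes also carry, rose by 1.89 and Mcam, which mural cells share, by 2.03 on the log2 scale. Of 10 leukocyte counter-receptors 8 rose (80%, against 37.2% of all genes), 1 did not pass and 1 fell, Glg1 at -0.37. With library size alone 9 were higher and 0 lower, where 52.3% and 24.2% of all genes were. The summed CPM of the 10 was 247 and 248 after cisplatin, against 240 and 239 after saline. Itgam, the alpha chain of Mac-1, had 15.9 and 18.6 CPM after cisplatin, against 0.812 and 1.64 CPM after saline, and the beta chain Itgb2 had 11.7 and 13.6 CPM after cisplatin, against 2.98 and 3.36 CPM after saline. Cd44, a ligand of E-selectin that injured tubules also express, rose by 2.72 and Itgax, an integrin of dendritic cells and macrophages, by 1.85 on the log2 scale.

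Markers of other cells outside the tubule were mostly higher too, where 37.2% of all genes rose and 36.4% fell. Their part in the endothelial result was not tested. Macrophage and monocyte markers summed to 316 and 333 CPM after cisplatin, against 118 and 126 CPM after saline (11 of 15 rose, 1 fell), with Cd68 at a log2 fold change of 5.43 and Cd14 at 2.98. Neutrophil markers summed to 37.1 and 34.2 CPM after cisplatin, against 4.27 and 2.99 CPM after saline, and all 7 tested of 12 rose, with S100a9 at 4.33 and Cxcr2 at 2.40. Mural and renin cell markers had a median log2 fold change of 0.79 (7 of 12 rose, 2 fell and 3 did not pass). Pdgfrb rose by 1.50 and Tagln by 1.66, while Cspg4 fell, at -0.93, as did Abcc9, at -0.74. With library size alone Cspg4 and Abcc9 stayed lower, at -0.56 and -0.37. Podocyte markers had a median of 0.82 (8 of 10 rose, 2 fell), and Nes, which endothelium shares, rose by 1.29 and Synpo by 1.19. Fibroblast markers had a median of 1.30 (7 of 10 rose, 1 fell), and Col3a1 rose by 2.42 and Col1a1 by 2.66. Lymphatic markers had a median of 0.57 (4 of 7 rose, 1 fell and 2 did not pass). Flt4 rose by 0.99 and Pdpn, which podocytes share, by 0.96. Prox1 fell, at -0.39, and stood at -0.02 with library size alone.

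Most tubule markers went the other way. The 12 proximal tubule markers all fell, where 36.4% of all genes did, with Slc5a12 at a log2 fold change of -4.71 and Slc6a19 at -4.11. They summed to 4640 and 4593 CPM after cisplatin, against 26409 and 26785 CPM after saline. Of 12 markers of the thick limb, distal tubule and collecting duct 10 fell (83.3%, against 36.4%), with Calb1 at -3.18 and Slc12a3 at -1.99. The 2 that rose (16.7%, against 37.2% of all genes) were Aqp2 at 0.68 and Avpr2 at 0.39. The part of this lower tubule RNA in the rise of the endothelial genes was not tested. Log2 fold changes of the members ran from -3.14 for Aplnr to 3.16 for Sele.

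**Figure D5:**
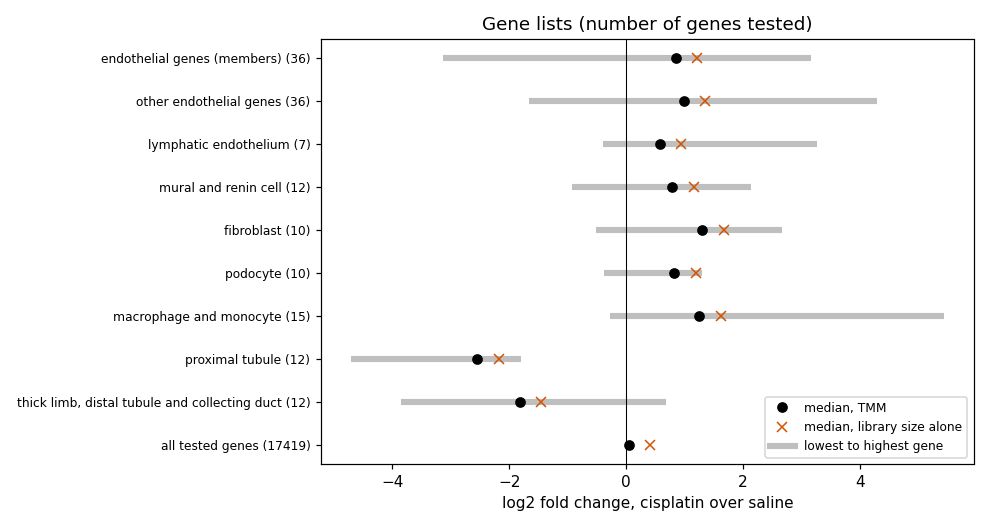
Log2 fold change, cisplatin over saline, for gene lists, with a black dot at the median, an orange cross at the median with library size alone and a grey bar over the range of the tested genes. The endothelial genes, with a median of 0.85, stand near the other endothelial genes (0.99), podocyte (0.82) and mural markers (0.79). The medians of the tubule lists lie below 0, and the range of the thick limb, distal tubule and collecting duct list reaches 0.68.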

How the data were processed

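Kidney RNA was depleted of ribosomal RNA and sequenced as paired 150 nt reads from directional libraries, per the labels' protocols. The authors deposited raw read counts per gene (29190 genes) and FPKM values (29157 genes). The submitters' processing notes name TopHat2, edgeR, bcl2fastq and the build GRCm38, without versions or roles. The counting program, strand use and annotation were not given in the sources used here. Among the counts 1 row carries a gene identifier without a symbol, with at most 0.000929% of a library's counts, and was kept. Groups came from the treatment label.

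Counts were filtered with filterByExpr, scaled by TMM (factors 1.15 and 1.12 for cisplatin, 0.861 and 0.901 for saline) and tested with edgeR 4.0.16 (R 4.3.3) by the quasi-likelihood F test with 2 residual degrees of freedom and Benjamini-Hochberg adjustment over all 17419 tested genes. The pipeline was first tested on simulated data. Alternatives used DESeq2 1.42.0, limma 3.58.1 on log2 FPKM (pseudocount 0.1 or 1), other scalings and filters, a replicate block and single libraries left out. The counts of replicate libraries were compared by chi-square, which per degree of freedom came to 11.5 for cisplatin and 36.6 for saline. P-values set the group difference against the spread between these libraries, which edgeR estimates for each gene with help from all genes.

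Coordinates and overlaps came from GENCODE M21 on GRCm38, which held 99.2% of the deposited identifiers without version suffix. Genes named outside the 36 were up to 4 per companion list and 2 per marker list, except where stated. They had the smallest p among genes of at least 1 CPM. Csf1r, Aqp7, Esm1, Cd300lg, Lmo2, Nrp1, Ctnnb1 and Glg1 were named besides, as the genes of their lists that fell. The members and lists were chosen with earlier results of these data known. Counting error alone underlies the 3-count floor, since PCR copies were not marked. Plots used matplotlib 3.10.9.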

Additional observations from a re-analysis of the deposited data

How the results depend on the processing

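Over the 15 alternatives 24 of the 28 members that rose were higher in each, and the exceptions were Tek, Erg, Gja5 and Selp. Selp was not tested with a filter of 1 CPM in 2 libraries. Of the 4 that fell only Aplnr was lower in each. The number of members that rose ranged from 24 to 31. With library size alone it was 31, where 52.3% of all genes were higher and 24.2% lower. For the other alternatives the shares of all genes by direction were not counted. The number that fell was 1 with library size alone and 1 with limma-trend on FPKM at either pseudocount. Library size alone gave a members' median log2 fold change of 1.21, upper-quartile scaling 0.97, FPKM plus 0.1 gave 1.08, and it was 0.77 to 0.86 with single libraries left out. Emcn turned positive, at 0.31 on library size, 0.06 under upper-quartile scaling, 0.22 for FPKM plus 0.1 and 0.21 for FPKM plus 1. Clec14a turned positive at 0.14 with library size alone and at 0.03 with FPKM at either pseudocount, and Ehd3 at 0.05 with library size alone. In these cases the scaling or the input changed, and the cause was not tested further. The replicate numbers did not pair the libraries (correlation of replicate differences between groups -0.0213). With the replicate block 26 members rose, 4 fell and 12653 genes were called, and Tek and Selp were no longer called. DESeq2 called 24 members higher and 3 lower, and 11023 genes in all. Depth limits Selp, Sele and Gja4, which rest on few counts, and no change of total RNA per cell can be seen in these scaled values.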
